A study of Mus musculus with 9 samples.

Results

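The Forkhead genes encode transcription factors that share the forkhead, or winged helix, DNA-binding domain. They were taken by name, as every gene of the deposited table whose symbol is Fox followed by a letter from a to s, a number and at most one further letter. The rule found 32 of 27207 genes and used no measured value. They were followed in RNA sequencing libraries of E18.5 mouse lungs, close to birth, with 9 libraries in 3 groups and the whole organ as the source of RNA. The wild type group (3 libraries) is described by its genotype only. Both other groups carried Tbx4-rtTA, Tet-O-Cre and Dnmt1-D/D, a conditional knockout (CKO) of the DNA methyltransferase that keeps methylation in place through cell division. Lungs of the weak CKO group (3 libraries) were hypoplastic without haemorrhage. Lungs of the strong CKO group (3 libraries) were hypoplastic, with haemorrhage throughout the parenchyma. The Tbx4-rtTA driver is used to reach lung mesenchyme, so RNA of cells outside its reach, such as epithelium, is part of every library, and no period of induction is named in the labels. In RNA from whole lungs, fewer cells of a type and less RNA per cell cannot be told apart.

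Several Forkhead factors build the lung. Foxa1 and Foxa2 act in the endoderm and its epithelium, Foxf1 and Foxf2 act in the mesenchyme under Hedgehog signals, and Foxj1 switches on the genes of motile cilia in airway cells. Foxp1, Foxp2 and Foxp4 repress transcription in epithelium and mesenchyme, Foxm1 drives entry into mitosis, and the FoxO factors act where insulin signalling is low.

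Total counts ran from 25607595 to 33156732 per library, and values per library are given in the order WT_265_1, WT_268_1 and WT_549_2 for wild type, MUT_W_265_2, MUT_W_268_3 and MUT_W_549_3 for weak CKO, and MUT_S_265_5, MUT_S_268_4 and MUT_S_860_3 for strong CKO. These are the titles of the libraries, and the labels do not explain the middle number, which recurs across groups. Dnmt1, the targeted gene, had 79.1, 121 and 97.2 CPM (counts scaled to library size with TMM factors) in wild type, 59.1, 69.1 and 80.6 in weak CKO and 62.0, 78.7 and 65.1 in strong CKO. Its log2 change against wild type was -0.51 ± 0.17 (SE; adjusted p = 0.0727) in weak CKO, which did not pass the threshold of 0.05, and -0.53 ± 0.17 (SE; adjusted p = 0.0433) in strong CKO. The strong CKO call was lost without WT_268_1 (-0.36), without WT_549_2 (-0.54), without MUT_W_268_3 (-0.52), which enters the shared estimate of the spread, and without MUT_S_265_5 (-0.46) or MUT_S_860_3 (-0.49). With upper quartile factors, no filter on low counts, fits of 2 groups or limma it was lost too (-0.53 to -0.38). The weak CKO change of Dnmt1 passed in DESeq2 (-0.52), without WT_265_1 (-0.65) and without MUT_W_549_3 (-0.63). It also passed in the edgeR fit with the middle number as a replicate block (-0.50, adjusted p = 0.00867). Lung epithelial genes, among them the surfactant gene Sftpb, summed to 13517 to 19656 CPM over the 9 libraries. Erythroid marker genes, a sign of blood, summed to 3953 to 7404 CPM in wild type, 3779 to 4397 in weak CKO and 6766 to 12697 in strong CKO, and their part in the results below was not tested.

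Levels were compared between members as CPM per kilobase of merged exon. In wild type lungs Foxf1 was the most abundant, at 67.0 ± 3.55 CPM per kilobase (SD, n = 3), followed by Foxo3 at 42.5 ± 1.51 and Foxj1 at 22.6 ± 4.26. The next were Foxo4 (20.2 ± 2.34), Foxa1 (19.9 ± 1.72), Foxf2 (18.6 ± 0.745) and Foxa2 (18.3 ± 1.94), on the same scale. Foxf1, Foxo3 and Foxj1 held separate ranges, whereas from Foxj1 down to Foxa2 each gene overlapped the next over the 3 wild type libraries. Then came Foxp4 at 14.9 and Foxp1 at 14.7 CPM per kilobase. The first 4 members held 46.8% of the summed level of the family, and 21 of 32 members reached 1 CPM per kilobase. In strong CKO the order at the top changed in its means: Foxj1 stood at 50.7 ± 6.87 and Foxf1 at 44.5 ± 8.19 CPM per kilobase, with overlapping libraries.

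**Figure D1:**
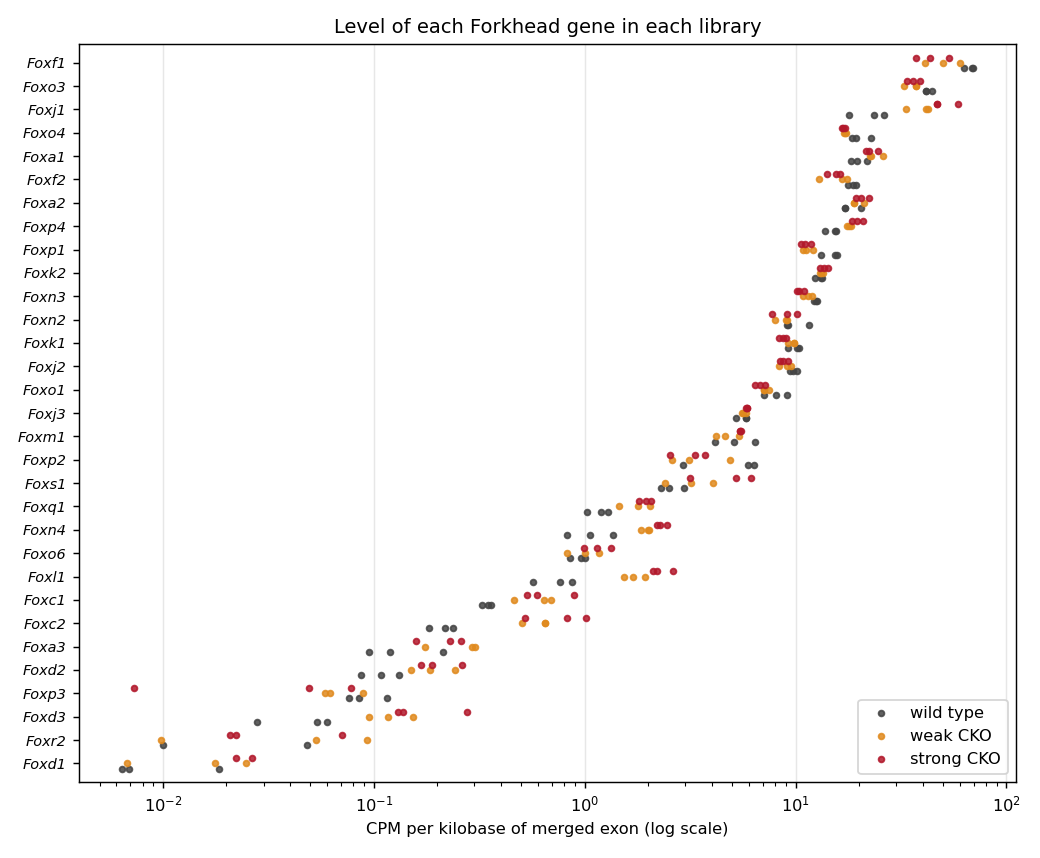
Level of each Forkhead gene, as CPM per kilobase of merged exon on a log axis, with 1 point per library and genes ordered by their wild type mean. Libraries with 0 counts of a gene are not drawn; Foxf1 leads in wild type, and the points of Foxj1 lie further right in both CKO groups.

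A member was tested when enough libraries held counts of it, which 29 of the 32 did. Foxd1 and Foxr2 were not tested and lay near the limit of counting. Foxd1, a factor of kidney stroma, had 1, 1 and 3 counts in wild type, 1, 3 and 4 in weak CKO and 3, 0 and 4 in strong CKO. Foxr2 had 0, 1 and 5 counts in wild type, 5, 10 and 1 in weak CKO and 6, 2 and 2 in strong CKO. No difference in these 2 members was detectable at this depth.

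In weak CKO, 7 of the 29 tested members rose (Foxc1, Foxc2, Foxj1, Foxl1, Foxn4, Foxp4 and Foxq1), beside 9.09% of all 19374 tested genes. The members that fell numbered 2 (Foxo3 and Foxp1), beside 5.38% of all tested genes. In strong CKO, 9 members rose, which were the same 7 with Foxs1 and with Foxd3, which entered the test through its CKO libraries only, beside 14.6% of all genes, and 5 fell, which were Foxo3 and Foxp1 with Foxf1, Foxn3 and Foxo4, beside 11% of all genes. The called members made up 31.0% of those tested in weak CKO (all genes 14.5%) and 48.3% in strong CKO (all genes 25.6%). The median log2 change of the tested members was 0.03 in weak CKO and 0.07 in strong CKO, and that of all tested genes was -0.01 and -0.00. Changes beyond 2-fold were seen in 2 called members in weak CKO (Foxc2 and Foxl1) and in 5 in strong CKO (Foxc2, Foxd3, Foxj1, Foxl1 and Foxn4). Libraries did not overlap with wild type in 10 members that lay above and 6 that lay below it in weak CKO (all genes 17.7% and 13.8%, together 31.4%), and in 11 above and 8 below in strong CKO (all genes 22.7% and 19%, together 41.7%). Both CKO groups were compared with the same 3 wild type libraries, so their changes are not independent of each other.

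Among the members, most rises were of scarce genes and the falls were of abundant ones. Of the 11 tested members with a mean under 10 CPM over the 9 libraries, 5 rose in weak CKO and 7 in strong CKO, beside 11.4% and 17.6% of the 8622 tested genes at such levels. Of those genes 2.86% fell in weak CKO and 5.53% in strong CKO, and no such member was among the called falls. Without Foxd3, whose wild type libraries all lay under the count filter, 6 of 10 such members rose in strong CKO. Of the 18 tested members at or above 10 CPM, 2 rose and 2 fell in weak CKO, beside 7.25% and 7.39% of the 10752 genes there, and 2 rose and 5 fell in strong CKO, beside 12.2% and 15.5%. The mark of 10 CPM was chosen after the values were seen, and it falls in a gap of the family, between 7.84 and 29.6 CPM.

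**Figure D2:**
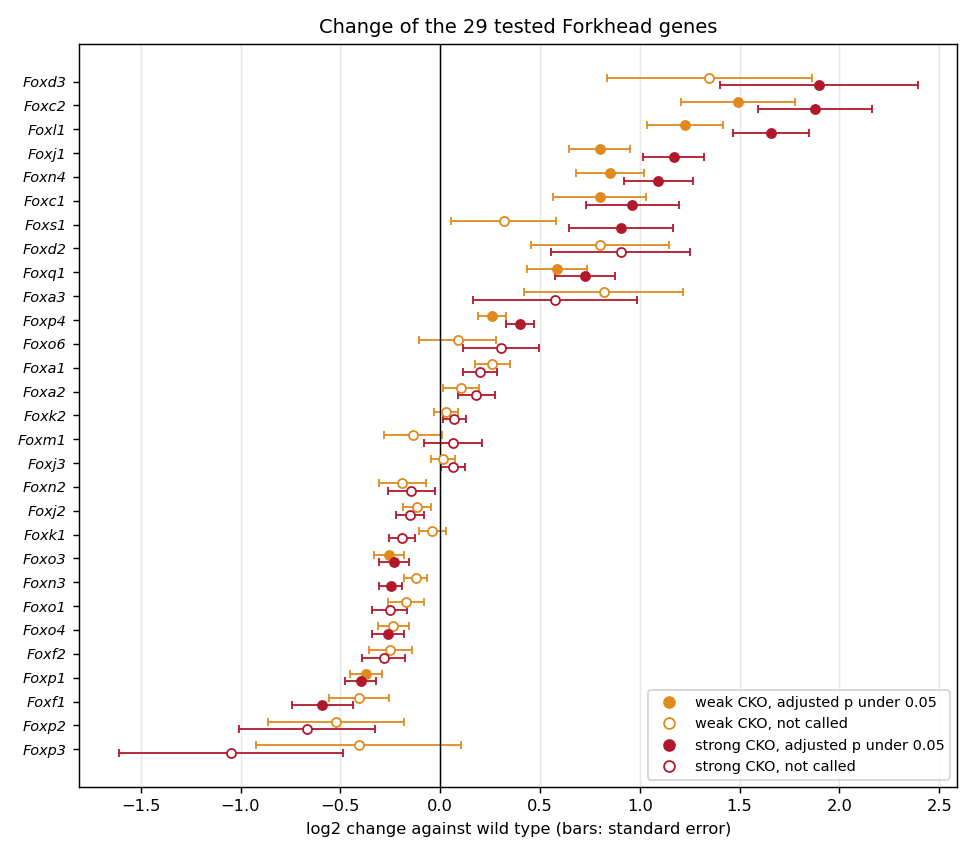
Log2 change of the 29 tested Forkhead genes against wild type in weak CKO and strong CKO, with standard errors as bars and filled points for adjusted p under 0.05. The largest rises are those of the scarce genes Foxc2 and Foxl1, and of Foxd3, which entered the test through its CKO libraries only. The called falls, all of abundant genes, stay within a log2 change of -0.59.

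Foxf1, the mesenchymal factor needed for lung vessels and airway smooth muscle, fell in strong CKO. Its libraries held 152, 168 and 165 CPM in wild type, 99.7, 121 and 145 in weak CKO and 89.5, 129 and 104 in strong CKO. All 6 CKO libraries lay below all wild type libraries, and the first library listed was the lowest of each group. The log2 change was -0.41 ± 0.15 (SE; adjusted p = 0.108) in weak CKO, which did not pass, and -0.59 ± 0.15 (SE; adjusted p = 0.019) in strong CKO, or 0.664-fold of the wild type level. The strong CKO call was lost on leaving out WT_268_1 (-0.56) or WT_549_2 (-0.57), or MUT_S_265_5 (-0.47) or MUT_S_860_3 (-0.56). In weak CKO the change passed in DESeq2 (-0.41) and without MUT_W_549_3 (-0.55). It also passed in the edgeR fit with the middle number as a replicate block (-0.42, adjusted p = 0.0172). Against the wild type library of the same middle number, the log2 difference of the weak CKO libraries was -0.61, -0.47 and -0.19 in the order above, and that of MUT_S_265_5 and MUT_S_268_4 was -0.76 and -0.38. Foxf2, the paralog that acts with it in mesenchyme, held 42.0, 45.5 and 44.1 CPM in wild type, 30.4, 39.0 and 41.2 in weak CKO and 33.3, 36.7 and 38.3 in strong CKO. Its weak CKO and strong CKO libraries were below those of wild type, but the change did not pass: -0.25 ± 0.11 (SE; adjusted p = 0.157) and -0.28 ± 0.11 (SE; adjusted p = 0.0818). The strong CKO change of Foxf2 passed where only the wild type and strong CKO groups were fitted (-0.28), and without MUT_W_265_2 (-0.28).

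Genes that work with Foxf1 in lung mesenchyme moved in both directions, more of them down. Of 19 tested genes of that list 6 fell and 2 rose in weak CKO, beside 5.38% and 9.09% of all genes. In strong CKO 10 fell and 4 rose, beside 11% and 14.6%. The list medians were -0.36 and -0.55 (all genes -0.01 and -0.00). Without MUT_S_265_5 the 4 that rose became 1, and without any other single library except WT_265_1 or WT_268_1 they became 2. The 2 that rose in weak CKO became 0 without WT_549_2 or MUT_W_268_3, and 1 without any other CKO library. Wnt2, a mesenchymal signal for lung growth, changed by -1.11 ± 0.13 in weak CKO and -1.50 ± 0.13 in strong CKO (SE; adjusted p = 0.000477 and 5.89e-05). Tcf21, a mesenchymal transcription factor, changed by -0.56 ± 0.11 and -0.80 ± 0.11 (SE; adjusted p = 0.00759 and 0.000639). Foxf1 made up 5.43 ± 0.253% of the summed CPM of its mesenchyme list in wild type, 5.64 ± 0.686% in weak CKO and 5.50 ± 0.469% in strong CKO (SD, n = 3), which overlap. The list itself summed to 2955 to 2995 CPM in wild type, 2044 to 2341 in weak CKO and 1707 to 2131 in strong CKO. Endothelial genes, which mark cells where Foxf1 is also expressed, moved in the same direction. Of 16 tested genes 9 fell in weak CKO and 16 in strong CKO, beside 5.38% and 11% of all genes, with medians of -0.41 and -0.64. The 9 became 1 without MUT_W_265_2, 3 without MUT_W_268_3 or WT_549_2 and 5 without WT_265_1. In strong CKO 14 to 16 fell when single libraries were left out. Without WT_265_1, MUT_W_265_2 and MUT_S_265_5 together, a fit chosen after the data were seen, 10 fell there. Their summed CPM ran from 3261 to 4108 in wild type, 2768 to 2939 in weak CKO and 2134 to 2616 in strong CKO. Sox17, an arterial endothelial factor, changed by -0.90 ± 0.11 in strong CKO (SE; adjusted p = 0.000449). The part of either cell type in the change of Foxf1 was not tested.

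Foxf1 lies in a group of 3 Forkhead genes within 46.3 kb of chromosome 8, and its neighbours there rose. On the GRCm38 build (GENCODE M21 annotation) Foxf1 (ENSMUSG00000042812) spans 121084386 to 121088144 on the plus strand, Foxc2 (ENSMUSG00000046714) 121116171 to 121118895 and Foxl1 (ENSMUSG00000097084) 121127940 to 121130644, both on the same strand. Foxc2, a factor of lymphatic valves and mesenchyme, held 0.593, 0.646 and 0.498 CPM in wild type, 1.77, 1.76 and 1.38 in weak CKO and 2.75, 1.43 and 2.24 in strong CKO. Every CKO library was above every wild type library. The log2 change of Foxc2 was 1.49 ± 0.29 (SE; adjusted p = 0.00725) in weak CKO and 1.88 ± 0.28 (SE; adjusted p = 0.00118) in strong CKO, which is 2.82-fold and 3.68-fold of wild type. Foxl1, a factor of mesenchyme beneath gut epithelium, held 1.54, 2.36 and 2.05 CPM in wild type, 4.56, 5.22 and 4.17 in weak CKO and 7.12, 5.71 and 5.98 in strong CKO. Its groups did not overlap, and the weak CKO libraries lay between the others. The change was 1.23 ± 0.19 (SE; adjusted p = 0.00224) and 1.66 ± 0.19 (SE; adjusted p = 0.000238), or 2.34-fold and 3.15-fold. Of 7 tested lymphatic genes, 2 fell in weak CKO and 4 in strong CKO, beside 5.38% and 11% of all genes. Those of strong CKO were Pdpn, Gata2, Lyve1 and Flt4, a lymphatic growth factor receptor that changed by -0.63 ± 0.09 (SE; adjusted p = 0.00101). Prox1, Reln and Mmrn1 of the list were called in neither group. The 2 of weak CKO became 0 without MUT_W_265_2 or MUT_W_268_3, 1 without WT_549_2 and 4 without MUT_W_549_3.

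Other RNAs of that stretch also differed from each other. Fendrr, the noncoding RNA that starts beside Foxf1 on the opposite strand, held 105, 165 and 256 CPM in wild type, 53.7, 71.6 and 108 in weak CKO and 50.0, 86.6 and 71.5 in strong CKO. Its change was -1.17 ± 0.39 (SE; adjusted p = 0.0897) in weak CKO, which did not pass, and -1.34 ± 0.39 (SE; adjusted p = 0.0413) in strong CKO, with overlap between the weak CKO and wild type libraries. The weak CKO change of Fendrr passed in DESeq2 (-1.17). It also passed in the edgeR fit with the middle number as a replicate block (-1.14, adjusted p = 3.12e-05). The strong CKO call of Fendrr was lost on leaving out WT_268_1 (-1.38) or WT_549_2 (-0.96), MUT_W_268_3 (-1.33), or MUT_S_265_5 (-1.14), MUT_S_268_4 (-1.52) or MUT_S_860_3 (-1.35). Mthfsd, an enzyme gene between Foxf1 and Foxc2, changed by -0.05 in weak CKO and 0.03 in strong CKO (adjusted p = 0.733 and 0.799). No label tells whether strand was used in counting, and the annotation holds a further transcript, Gm20388, across all 3 Forkhead genes, so reads of these overlapping genes cannot be told apart.

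A second group of 3 lies within 256 kb of chromosome 13, all on the plus strand of GRCm38: Foxq1 (ENSMUSG00000038415) from 31556134 to 31560976, Foxf2 (ENSMUSG00000038402) from 31625816 to 31631403 and Foxc1 (ENSMUSG00000050295) from 31806633 to 31812476. Here too the Foxf gene had a negative change and the others rose. Foxc1, a factor of vascular and skeletal mesenchyme, held 2.09, 2.03 and 1.90 CPM in wild type, 4.05, 2.71 and 3.73 in weak CKO and 5.20, 3.46 and 3.11 in strong CKO. All CKO libraries exceeded wild type, and MUT_W_265_2 and MUT_S_265_5 were the highest of their groups. The log2 change of Foxc1 was 0.80 ± 0.23 (SE; adjusted p = 0.0452) in weak CKO and 0.96 ± 0.23 (SE; adjusted p = 0.0129) in strong CKO. The weak CKO call was lost without any one of the wild type libraries (0.76 to 0.83), without MUT_W_265_2 (0.68) or MUT_W_549_3 (0.75), and without MUT_S_268_4 (0.80). In strong CKO it was lost without MUT_S_265_5 (0.71). Foxq1, a factor of mucus-secreting stomach cells, held 5.76, 4.97 and 6.25 CPM in wild type, 9.84, 8.62 and 7.02 in weak CKO and 9.94, 8.74 and 9.43 in strong CKO. No CKO library fell into the wild type range. Its change was 0.58 ± 0.15 (SE; adjusted p = 0.0272) and 0.73 ± 0.15 (SE; adjusted p = 0.00584). The weak CKO call of Foxq1 was lost without WT_268_1 (0.50) and without MUT_W_265_2 (0.47) or MUT_W_268_3 (0.58). An antisense transcript, A530084C06Rik, overlaps Foxq1, and its reads may be counted with it. Gmds, beyond Foxc1, changed by 0.34 ± 0.12 (SE; adjusted p = 0.0894) in weak CKO and 0.37 ± 0.12 (SE; adjusted p = 0.0481) in strong CKO, and 14 of 18 alternatives lost the latter call (0.33 to 0.42), among them every fit without a single library except MUT_W_549_3.

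**Figure D3:**
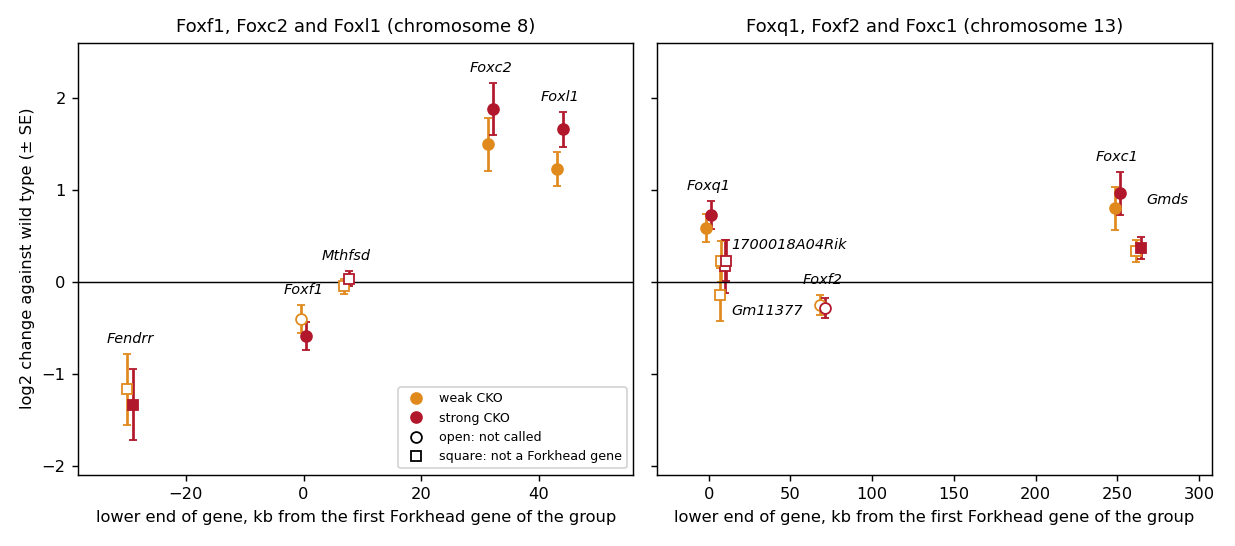
Log2 change against wild type, with standard errors, of the Forkhead genes (circles) and other tested genes (squares) of both chromosomal groups, placed by the distance of their lower end from that of the first Forkhead gene in kilobases. Filled marks have adjusted p under 0.05; Foxf1 and Foxf2 lie below 0 and Foxc2, Foxl1, Foxq1 and Foxc1 above it.

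Since the study removed a DNA methyltransferase, the sequence before the start of 3 members is shown, for the density of CG pairs, the sites of DNA methylation. They are the 250 bases upstream of the start in the RefSeq table (GRCm38.p6), without bases that the GENCODE M21 annotation places inside the gene. They are written 5′ to 3′ in lower case with every CG in capitals. The sequence of Foxc1, which rose, is chr13:31806396-31806632 on the plus strand. That of Foxd3, a scarce member that rose in strong CKO, is chr4:99656049-99656298 on the plus strand. That of Foxf2, which passed in neither group, is chr13:31625566-31625815 on the plus strand. Most of the Foxf2 stretch lies within another annotated gene, 1700018A04Rik, on the minus strand from 31565492 to 31625792.
Foxc1: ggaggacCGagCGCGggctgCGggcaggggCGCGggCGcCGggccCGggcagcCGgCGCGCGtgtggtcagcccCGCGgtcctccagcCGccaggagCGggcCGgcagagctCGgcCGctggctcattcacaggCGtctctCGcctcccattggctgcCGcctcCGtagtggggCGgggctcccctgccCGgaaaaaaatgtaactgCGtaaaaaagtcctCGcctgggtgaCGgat
Foxd3: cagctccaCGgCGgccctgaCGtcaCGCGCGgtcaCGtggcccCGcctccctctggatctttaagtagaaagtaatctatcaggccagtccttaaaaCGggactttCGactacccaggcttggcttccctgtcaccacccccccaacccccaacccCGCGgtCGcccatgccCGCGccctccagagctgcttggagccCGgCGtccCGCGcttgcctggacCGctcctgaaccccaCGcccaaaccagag
Foxf2: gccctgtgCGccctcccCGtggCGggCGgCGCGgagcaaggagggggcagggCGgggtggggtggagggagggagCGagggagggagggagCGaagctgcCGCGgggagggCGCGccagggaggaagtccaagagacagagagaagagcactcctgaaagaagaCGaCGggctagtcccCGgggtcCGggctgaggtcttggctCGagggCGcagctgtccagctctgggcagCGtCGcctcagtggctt
The Foxc1 stretch, cut to 237 bases, holds 29 CG pairs, and those of Foxd3 and Foxf2, of 250 bases, hold 21 each. The table matched 19 of the 32 members, and their median was 21 CG pairs in the 250 bases before the start (range 3 to 48), against 6 for all 27025 genes of the table (0 to 56). The median was 24 in the 4 matched members that rose in either CKO group, 31 in the 3 that fell and 20.5 in the 10 tested members not called. The 4 include Foxd3, which passed the count filter only through CKO libraries. Only the first promoter listed for a gene was used, and Foxa2, Foxp1 and Foxp3 have more than 1. For Foxp1, 1 of the 3 that fell, 34 CG pairs entered, and its other promoters hold 3 and 11, so the median of 31 depends on that choice. The windows behind these medians start from RefSeq and were not cut by the GENCODE annotation. Among the members that fell, those of Foxn3 (chr12:99450075-99450324) and Foxp1 (chr6:99028299-99028548) lie inside the annotated gene. So do those of Foxa1, Foxa2, Foxj2, Foxj3 and Foxp3, which were not called. The forkhead binding motif TGTTTAC, searched on both strands, was in 1 of the 19 windows (Foxa1), or 5.26%, against 3.09% of all genes. Methylation itself was not measured in these libraries.

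Foxj1, the master regulator of motile cilia, was the most abundant member to rise, by level per kilobase. It held 68.7, 61.9 and 46.9 CPM in wild type, 111, 109 and 87.9 in weak CKO and 154, 122 and 123 in strong CKO. The 3 groups did not overlap. The log2 change was 0.80 ± 0.15 (SE; adjusted p = 0.00892) in weak CKO and 1.17 ± 0.15 (SE; adjusted p = 0.000746) in strong CKO, or 1.74-fold and 2.25-fold of wild type, and both calls held under all 18 alternatives. Foxj1 (ENSMUSG00000034227) lies on the minus strand of chromosome 11 from 116330704 to 116335399 (GRCm38). Motile cilia genes rose with it. Of 25 tested genes of that list 16 rose in weak CKO and 18 in strong CKO (all genes 9.09% and 14.6%), with medians of 0.76 and 0.91. Rsph1, of the radial spoke, changed by 0.84 ± 0.07 and 1.08 ± 0.07 (SE; adjusted p = 3.28e-05 and 6.55e-06). Ccno, which acts in the making of basal bodies, changed by 0.90 ± 0.12 and 1.14 ± 0.12 (SE; adjusted p = 0.00102 and 0.00016). The list summed to 555 to 797 CPM in wild type, 943 to 1312 in weak CKO and 1173 to 1267 in strong CKO. Foxj1 made up 8.29 ± 0.428% of that sum in wild type, 9.14 ± 0.586% in weak CKO and 10.9 ± 1.09% in strong CKO (SD, n = 3). The part of the number of ciliated cells in the rise of Foxj1 was not tested.

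**Figure D4:**
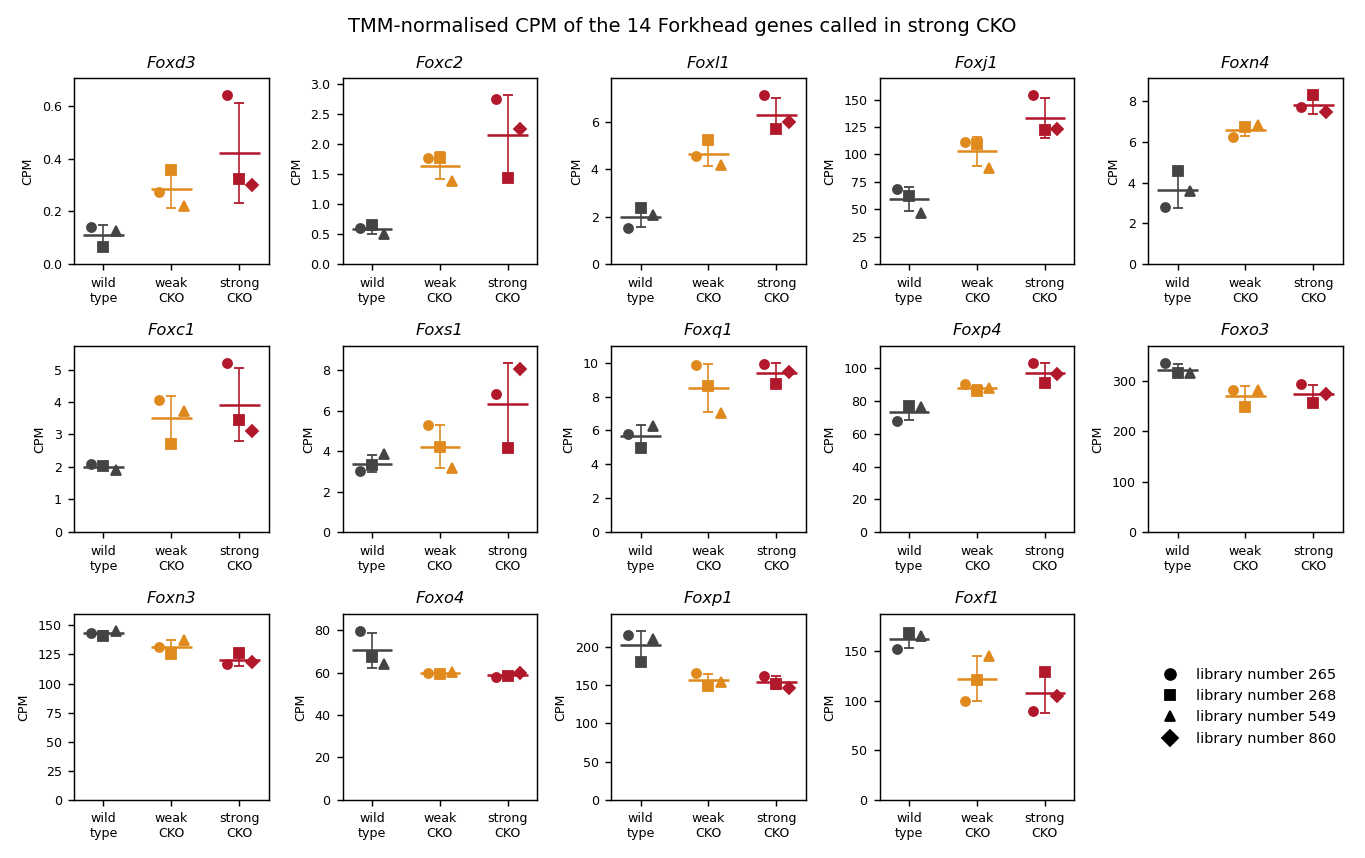
CPM of the 14 Forkhead genes called in strong CKO, with 1 symbol per library by the number in its title, the mean as a line and the SD as a bar, on linear axes from 0. The groups of Foxj1, Foxl1, Foxn4 and Foxp4 are fully separate, whereas single strong CKO libraries stand above the others of their group in Foxd3 and Foxc1.

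Foxn4, a factor of neural and multiciliated progenitors, also rose. Its libraries held 2.79, 4.59 and 3.58 CPM in wild type, 6.23, 6.71 and 6.83 in weak CKO and 7.68, 8.28 and 7.46 in strong CKO. The groups did not overlap, and the change was 0.85 ± 0.17 (SE; adjusted p = 0.00975) in weak CKO and 1.09 ± 0.17 (SE; adjusted p = 0.00148) in strong CKO. The CPM of Foxn4 was far under that of Foxj1 in every library. Foxj2 held 44.8 to 54.3 CPM and Foxj3 57.3 to 64.8 CPM over the 9 libraries. Unlike Foxj1, these 2 relatives were not called in either group, with changes of -0.12 and 0.02 in weak CKO and -0.15 and 0.06 in strong CKO.

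The Foxa genes of the endoderm did not pass in either group. Foxa1 held 72.3, 64.9 and 61.0 CPM in wild type, 86.6, 75.7 and 75.4 in weak CKO and 81.6, 71.9 and 74.0 in strong CKO. All weak CKO libraries exceeded those of wild type, and the strong CKO libraries overlapped them. The change was 0.26 ± 0.09 (SE; adjusted p = 0.0682) and 0.20 ± 0.09 (SE; adjusted p = 0.116). Without WT_265_1, the highest of its group, Foxa1 passed in weak CKO (0.33) and in strong CKO (0.27). In weak CKO it also passed with upper quartile factors (0.28) and with the middle number as a replicate block (0.26). Foxa2 held 48.6, 40.7 and 40.6 CPM in wild type, 50.1, 44.9 and 44.7 in weak CKO and 53.0, 45.6 and 48.7 in strong CKO, with overlapping groups. Its change was 0.10 ± 0.09 (SE; adjusted p = 0.508) and 0.18 ± 0.09 (SE; adjusted p = 0.178), and in strong CKO it passed without WT_265_1 (0.27). Foxa3, at 6 to 19 counts per library, changed by 0.82 ± 0.40 and 0.57 ± 0.41 (SE), which did not pass. Epithelial genes downstream of Foxa1 and Foxa2 split. Of 16 tested, 2 rose and 3 fell in weak CKO, beside 9.09% and 5.38% of all genes. In strong CKO 3 rose and 7 fell, beside 14.6% and 11%. The 7 became 1 without MUT_S_265_5, 2 without MUT_S_860_3, 3 without MUT_S_268_4 and 4 without MUT_W_268_3, and the 3 that rose became 5 without WT_265_1. The 3 that fell in weak CKO became 1 without MUT_W_265_2 or MUT_W_268_3. The airway secretory gene Scgb3a2 changed by 1.14 ± 0.16 and 1.34 ± 0.16 (SE; adjusted p = 0.00128 and 0.000321), and Lpcat1, of surfactant lipid synthesis, by -0.57 ± 0.09 in strong CKO (SE; adjusted p = 0.00122).

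The Foxp repressors moved apart. Foxp4 rose: it held 67.7, 76.9 and 76.1 CPM in wild type, 90.2, 86.5 and 87.9 in weak CKO and 103, 91.3 and 96.6 in strong CKO. All groups were separate, and the change was 0.26 ± 0.07 (SE; adjusted p = 0.0321) in weak CKO and 0.40 ± 0.07 (SE; adjusted p = 0.0026) in strong CKO. The weak CKO call of Foxp4 was lost without any one of the weak CKO libraries (0.25 to 0.28), WT_265_1 (0.21) or WT_549_2 (0.29), or MUT_S_860_3 (0.26). Foxp1 fell: it held 216, 181 and 211 CPM in wild type, 167, 149.6 and 154 in weak CKO and 163, 152 and 147 in strong CKO. Every CKO library was below every wild type library. Its change was -0.37 ± 0.08 (SE; adjusted p = 0.0125) and -0.40 ± 0.08 (SE; adjusted p = 0.00494); the weak CKO call was lost without MUT_W_268_3 (-0.33), and the strong CKO call held under all 18 alternatives. Foxp2, of distal epithelium, held 47.7, 96.9 and 104 CPM in wild type, 42.3, 51.1 and 80.0 in weak CKO and 41.6, 60.8 and 54.4 in strong CKO. The first library listed was the lowest in every group, and WT_265_1 overlapped both CKO groups. The change did not pass, at -0.52 ± 0.34 (SE; adjusted p = 0.367) and -0.67 ± 0.34 (SE; adjusted p = 0.195). Without WT_265_1 the strong CKO change was -0.94 and passed. The weak CKO change of Foxp2 passed with the middle number as a replicate block (-0.50). Foxp3, the regulator of regulatory T cells, had 10, 12 and 17 counts in wild type, 12, 9 and 9 in weak CKO and 6, 10 and 1 in strong CKO, and its change of -1.05 ± 0.56 (SE; adjusted p = 0.193) in strong CKO did not pass.

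The FoxO factors, restrained by insulin signalling, changed little in size. Foxo3 held 335, 315 and 316 CPM in wild type, 281, 247 and 282 in weak CKO and 293, 256 and 273 in strong CKO. All CKO libraries were below wild type. The change was -0.25 ± 0.07 (SE; adjusted p = 0.0473) in weak CKO and -0.23 ± 0.07 (SE; adjusted p = 0.0441) in strong CKO, near the threshold, and 15 and 14 of the 18 alternatives lost those calls, with values from -0.28 to -0.19 and from -0.25 to -0.18. Leaving out any one of the 9 libraries ended the weak CKO call of Foxo3, and leaving out any but MUT_W_268_3 or MUT_S_265_5 ended its strong CKO call. Foxo4 held 79.7, 67.6 and 64.2 CPM in wild type, 60.0, 59.4 and 60.4 in weak CKO and 57.8, 58.6 and 60.0 in strong CKO. Its libraries did not overlap between wild type and either CKO group, and it fell in strong CKO, with a change of -0.26 ± 0.08 (SE; adjusted p = 0.034), against -0.23 ± 0.08 (SE; adjusted p = 0.075) in weak CKO. The strong CKO call of Foxo4 was lost in 10 of 18 alternatives, among them the fits without WT_265_1 (-0.16), without MUT_W_268_3 (-0.25) and without any one of the strong CKO libraries (-0.27 to -0.24). The weak CKO change of Foxo4 passed without WT_549_2 (-0.30). Foxo1 held 69.9, 61.6 and 79.1 CPM in wild type, 61.2, 61.1 and 64.6 in weak CKO and 62.3, 58.8 and 55.6 in strong CKO. Its change did not pass, at -0.17 ± 0.09 (SE; adjusted p = 0.237) and -0.25 ± 0.09 (SE; adjusted p = 0.0606), and in strong CKO it passed in DESeq2 (-0.26) and without WT_268_1 (-0.34). Foxo6 ran from 2.15 to 3.50 CPM and was not called. FoxO target genes split by direction. Of 22 tested, 4 rose and 2 fell in weak CKO, beside 9.09% and 5.38% of all genes. In strong CKO 5 rose and 6 fell, beside 14.6% and 11%. The list contains Foxo1. Insr, the insulin receptor, changed by -0.47 ± 0.06 in strong CKO and Fbxo32, a ubiquitin ligase subunit, by 0.53 ± 0.11 (SE; adjusted p = 0.000592 and 0.00655). The 4 that rose in weak CKO became 0 without WT_268_1, MUT_W_265_2 or MUT_W_268_3 and 1 without WT_549_2, and the 2 that fell there became 0 without MUT_W_268_3 and 1 without WT_265_1, WT_268_1 or either other weak CKO library. In strong CKO the 5 that rose became 3 without WT_268_1, WT_549_2 or MUT_S_265_5, and the 6 that fell became 3 without WT_265_1, MUT_S_265_5 or MUT_S_860_3.

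Foxm1, the mitotic regulator, varied more among wild type libraries than between groups. It held 23.9, 37.0 and 29.4 CPM in wild type, 24.2, 26.7 and 31.2 in weak CKO and 31.8, 31.4 and 31.2 in strong CKO. The change was -0.14 ± 0.15 (SE; adjusted p = 0.586) in weak CKO and 0.06 ± 0.15 (SE; adjusted p = 0.78) in strong CKO, and its sign turned on single wild type libraries: 0.039 in weak CKO without WT_268_1, and -0.076 in strong CKO without WT_265_1. Of 18 tested mitosis genes 2 rose in weak CKO and 4 in strong CKO (all genes 9.09% and 14.6%), with medians of -0.03 and 0.22. The 2 became 0 without WT_549_2 or MUT_W_268_3, and 1 without any other single library except WT_268_1 or MUT_S_265_5. The 4 in strong CKO became 7 without WT_268_1. Cdc20, an activator of the anaphase complex, changed by 0.80 ± 0.10 and Nek2, a centrosome kinase, by 0.71 ± 0.10 in strong CKO (SE; adjusted p = 0.000489 and 0.000985). Foxm1 made up 2.89 ± 0.182%, 2.63 ± 0.176% and 2.67 ± 0.180% of the summed CPM of that list in wild type, weak CKO and strong CKO (SD, n = 3).

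The 2 members that rose in strong CKO alone were both scarce. Foxd3, a neural crest factor, had 4, 2 and 4 counts in wild type, 8, 12 and 7 in weak CKO and 17, 9 and 9 in strong CKO. All CKO counts exceeded all wild type counts. The change was 1.35 ± 0.51 (SE; adjusted p = 0.104) in weak CKO and 1.90 ± 0.49 (SE; adjusted p = 0.0165) in strong CKO, and that call was lost without WT_268_1 (1.63) or MUT_S_265_5 (1.48). No wild type library reached the level of the count filter (10 counts in a library of median size), against 1 weak CKO and 2 strong CKO libraries, so Foxd3 passed the filter only through CKO libraries, and its change is given as a description. It was not tested in the fits of 2 groups or without MUT_W_268_3. With no filter on low counts the strong CKO change was 1.91 (adjusted p = 0.0187). Foxs1, of pericytes and sensory neurons, held 3.00, 3.29 and 3.86 CPM in wild type, 5.31, 4.21 and 3.16 in weak CKO and 6.82, 4.14 and 8.09 in strong CKO. The weak CKO and wild type libraries overlapped, and MUT_S_268_4 lay within the weak CKO range. The change was 0.32 ± 0.26 (SE; adjusted p = 0.475) and 0.91 ± 0.26 (SE; adjusted p = 0.0282). Without WT_265_1 (0.83) or WT_268_1 (0.89), or MUT_S_265_5 (0.86) or MUT_S_860_3 (0.70), the call of Foxs1 was lost. It was also lost with the middle number as a replicate block (0.605). Of 9 tested neural crest and Schwann cell genes, 3 rose in weak CKO and 6 in strong CKO, beside 9.09% and 14.6% of all genes. Ngfr, a neurotrophin receptor, changed by 3.67 ± 0.30 and Sox10, a crest factor, by 2.06 ± 0.30 in strong CKO (SE; adjusted p = 2.91e-05 and 0.000995). The summed CPM of the list was 161 to 179 in wild type, 176 to 198 in weak CKO and 181 to 194 in strong CKO, and its part in the change of Foxd3 was not tested. Pericyte genes moved in both directions. Of 8 tested, 3 rose and 1 fell in weak CKO, beside 9.09% and 5.38% of all genes. In strong CKO 3 rose and 3 fell, beside 14.6% and 11%. Their medians were -0.17 and -0.30, and their part in the change of Foxs1 was not tested.

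**Figure D5:**
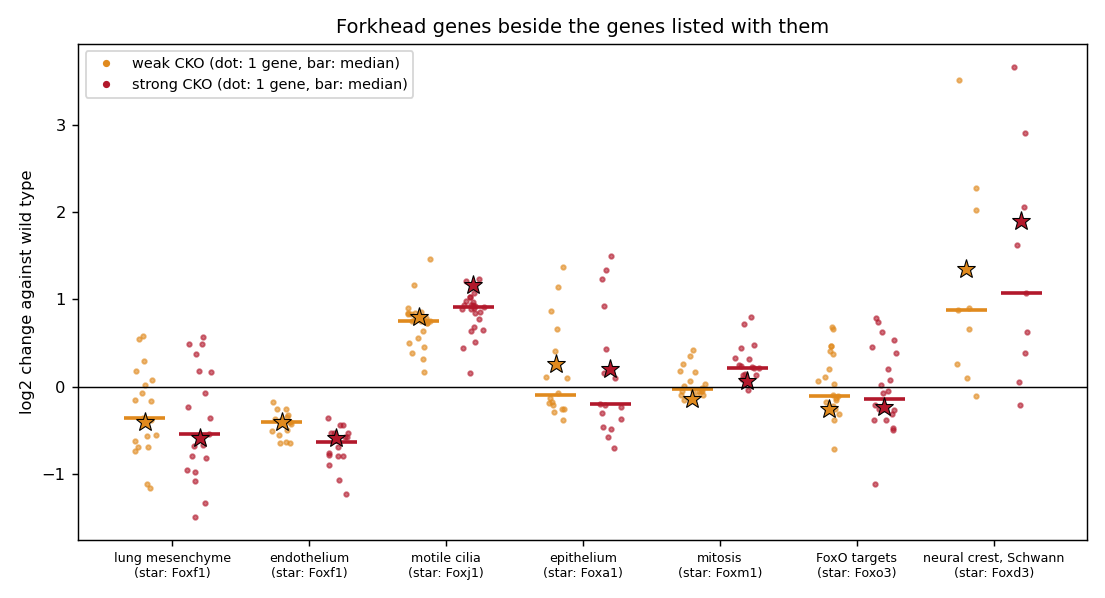
Log2 change against wild type of the tested genes of 7 lists in weak CKO and strong CKO, with 1 dot per gene, the list median as a bar and the Forkhead gene named under each list as a star. Foxj1 and the medians of the cilia list lie above 0, and Foxf1 lies near the negative medians of the mesenchyme and endothelium lists.

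The remaining tested members included abundant factors with little change. Foxn3, a repressor linked to cell cycle checkpoints, held 144, 141 and 145 CPM in wild type, 132, 125 and 138 in weak CKO and 116, 126 and 119 in strong CKO. All CKO libraries were below wild type, and it fell in strong CKO, with a change of -0.25 ± 0.06 (SE; adjusted p = 0.0113), against -0.12 ± 0.06 (SE; adjusted p = 0.201) in weak CKO. That call was lost without MUT_S_265_5 (-0.22) or MUT_S_860_3 (-0.23), and with the middle number as a replicate block (-0.22). Foxk2, which with Foxk1 regulates metabolic genes, held 65.3, 70.1 and 69.4 CPM in wild type, 69.2, 68.5 and 71.1 in weak CKO and 68.6, 71.4 and 75.1 in strong CKO, with changes of 0.03 and 0.07. Foxk1 held 78.4, 77.3 and 69.5 CPM in wild type, 74.9, 69.8 and 74.5 in weak CKO and 63.2, 68.1 and 66.0 in strong CKO. It changed by -0.04 ± 0.07 and -0.19 ± 0.07 (SE; adjusted p = 0.751 and 0.0597), and passed in strong CKO without WT_549_2 (-0.24). Foxn2 did not pass in either group, with changes of -0.19 and -0.14. Foxd2 held 7 to 20 counts per library, with changes of 0.80 ± 0.35 and 0.90 ± 0.35 (SE), which did not pass.

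Between strong CKO and weak CKO no member was called by edgeR, DESeq2 or limma, and 0.00516% of all tested genes were called by edgeR. The smallest adjusted p of a member was 0.873. At an unadjusted p under 0.05 there were 4 members: Foxj1, Foxl1 and Foxs1, higher in strong CKO, and Foxk1, lower. The log2 difference was 0.37 ± 0.15 for Foxj1, 0.43 ± 0.18 for Foxl1 and 0.59 ± 0.26 for Foxs1 (SE). The libraries of 7 members did not overlap between the CKO groups, 6 with strong CKO above and 1 below, beside 13.4% of all genes (6.7% above and 6.73% below). The 5 members called in strong CKO alone are not shown to differ between the CKO groups.

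For a few members, libraries that share a middle number were the lowest of every group. Foxf1, Foxf2 and Foxp2 were each lowest in WT_265_1, MUT_W_265_2 and MUT_S_265_5. Foxa3 and Foxo3 were each lowest in WT_268_1, MUT_W_268_3 and MUT_S_268_4, so this was not particular to 1 number. Over all 29 tested members, WT_265_1 was the lowest of its group for 10, MUT_W_265_2 for 5 and MUT_S_265_5 for 9. In groups of 3 libraries these counts are near or under an equal share. The fit without WT_265_1, MUT_W_265_2 and MUT_S_265_5 was chosen after these values were seen. There, 2 members rose and 1 fell in weak CKO, and 6 rose and 3 fell in strong CKO. In that fit Foxf1 kept its call in strong CKO, and Foxp2 passed there, at -0.80 (adjusted p = 0.0472). Foxj1 and Foxl1 kept their calls in both groups.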

How the data were processed

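RNA from whole E18.5 mouse lungs was sequenced as single reads, with 3 libraries in each of 3 groups. The labels do not say that the lungs came from separate litters, so p-values measure only the spread between these samples, which may in part be technical. The counts per gene were deposited by the authors and are not normalised. The RPKM values, per the file headers, are also the authors', and dividing the counts by deposited length gave them back with library sizes that were 1.03 to 1.13 times the summed counts. The gene length, another column deposited by the authors, matched the exon bases of all transcripts of a gene added up, with 1 base more per exon, in 96.4% of 27189 genes. It counts shared exons repeatedly, so levels between genes are given here as CPM per kilobase of merged exon. Per the submitters' processing notes, the tools were STAR with the GRCm38.p6 build, Trimmomatic 0.36, cutadapt 2.5, FastQC 0.11.8 and edgeR 3.28.1. For the counting tool, annotation release and strand setting, nothing is stated in the sources used here.

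The counts were tested with edgeR 4.0.16 in R 4.3.3 (quasi-likelihood F tests, two-sided, all 9 libraries in a fit with 1 mean per group, TMM factors of 0.938 to 1.04, genes kept by filterByExpr). Benjamini-Hochberg adjustment ran over all 19374 genes tested, and a gene was called at an adjusted p under 0.05. Exact permutation of 3 against 3 libraries cannot pass that threshold, so single-gene permutation was not used. On data simulated for strong CKO against wild type, over 19011 genes, 6 of 131 calls were false. Of 105 genes changed 1.5-fold 48.6% were recovered, and of 95 genes changed 2-fold 77.9%. The changed genes all had a mean above 1 CPM, so the rates do not cover scarcer members such as Foxd3. The simulated spread followed the trend over level, without a spread of each gene's own, and far fewer genes changed than were called in the data. Alternatives were other scaling factors, no filter, fits of 2 groups, DESeq2 1.42.0, limma 3.58.1 on log2(RPKM + 1) and log2(RPKM + 0.1), a block for the library number, and each library left out. A fit without WT_265_1, MUT_W_265_2 and MUT_S_265_5 was added after the data were seen. Changes on the log2(RPKM + 1) scale understate those of low genes.

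The members and the gene lists were chosen with earlier results of these data known. All members entered the counts, and 1 of them is not reported here by name. Values in every library are given for members called in any comparison, for the 8 with the highest wild type RPKM and for a fixed set of lung factors (Foxf1, Foxf2, Foxa1, Foxa2, Foxj1, Foxm1, Foxp1, Foxp2, Foxp4, Foxc1, Foxc2, Foxo1 and Foxo3). Of each list described, up to 4 called genes with the smallest adjusted p could be named. Dnai1 and Dnai2 of the cilia list were not matched and not analysed here.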

Additional observations from a re-analysis of the deposited data

How the results depend on the processing

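Depth limited the scarce members: Foxd3 rested on 10 wild type counts in all, and Foxc2 on 53. Log2 changes of members were recomputed under 18 alternatives, 1 of them chosen after the data were seen. Of these values 1177 kept their direction and their side of the threshold, 83 lost a call, 18 gained one and 12 changed sign. Most of the values are of changes that were not called in the main fit, between the CKO groups too. A call could be lost only for the 9 members called in weak CKO and the 14 called in strong CKO. When single libraries were left out, the members that rose in weak CKO numbered 4 to 7 and those that fell 0 to 2, and in strong CKO 6 to 10 rose and 1 to 5 fell. The cause of these moves was not tested. In weak CKO, 1 member fell with upper quartile factors, without the filter, in fits of 2 groups and in both limma fits. In strong CKO, 3 fell without the filter and in both limma fits. With WT_265_1, MUT_W_265_2 and MUT_S_265_5 left out, the alternative chosen after the data were seen, 2 rose and 1 fell in weak CKO, and 3 fell in strong CKO. The calls of Foxj1 and Foxl1 in weak CKO, and of Foxc2, Foxj1, Foxl1, Foxn4, Foxp4, Foxq1 and Foxp1 in strong CKO, held under all 18 alternatives.

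Signs turned for small changes when single libraries were left out. In weak CKO Foxj3 ran from -0.035 to 0.042, Foxk2 from -0.0012 to 0.048, Foxm1 from -0.28 to 0.039 and Foxo6 from -0.038 to 0.22. In strong CKO Foxm1 ran from -0.076 to 0.24 and Mthfsd from -0.044 to 0.081. Between the CKO groups Foxc1 ran from -0.089 to 0.31, Foxo3 from -0.035 to 0.070 and Foxp1 from -0.068 to 0.018. Without the 3 libraries named above, Foxm1 in strong CKO was -0.082 and Mthfsd -0.044.

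The middle numbers of the titles were not taken to pair the samples in the main fit, since the labels do not explain them. Correlations cannot settle whether they pair the samples, because the deviations cancel out within a group and its libraries are not independent. The pairs with WT_268_1, MUT_W_268_3 and MUT_S_268_4 stayed under a correlation of 0.1. Deviations of same-numbered wild type and weak CKO libraries correlated at 0.299 (WT_265_1 with MUT_W_265_2), -0.0869 (WT_268_1 with MUT_W_268_3) and 0.346 (WT_549_2 with MUT_W_549_3), so not every library correlated best with its own number. Between these 2 groups, pairs of unlike number ran from -0.380 (WT_549_2 with MUT_W_265_2) to 0.0745, and WT_265_1 with MUT_W_549_3 stood at -0.338. MUT_S_265_5 correlated at 0.112 with WT_265_1 and 0.169 with MUT_W_265_2, and MUT_S_268_4 at 0.0830 with WT_268_1 and -0.000546 with MUT_W_268_3. With the number as a replicate block, 8 members rose and 4 fell in weak CKO, and 8 rose and 3 fell in strong CKO. Over all genes 2402 then rose and 1524 fell in weak CKO, against 1761 and 1042 without the block. In strong CKO 2575 rose and 1875 fell, against 2830 and 2139. In weak CKO Foxf1 (-0.42), Foxa1 (0.26), Foxp2 (-0.50), Dnmt1 (-0.50) and Fendrr (-1.14) then passed, which they did not without the block. In strong CKO the calls of Foxn3 (-0.22), Foxo3 (-0.22), Foxs1 (0.605) and Gmds (0.42) were lost with it, and the difference of Foxp1 between the CKO groups turned to 0.016.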

Other observations

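The order of the members by level depended on the gene length used. The deposited length of Foxp1 was 54738 bases against 13751 bases of merged exon, and that of Foxp4 was 16064 against 4926, whereas that of Foxf1 was 2417 against 2415. By the deposited RPKM, Foxp4 was 14th and Foxp1 15th among the members in wild type, and by merged exon length they were 8th and 9th. Comparisons of a gene between groups are not touched by its length.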
